A study of Arabidopsis thaliana with 10 samples.

Results

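The WRKY proteins are a plant family of transcription factors, and the 52 Arabidopsis thaliana genes described here are family loci taken by their locus codes. Of these, 51 had a row of their own among the 33297 rows of the expression table. The remaining gene, WRKY16, shared a row with a neighbouring locus and was left out of every count. In all, 43 members passed the filter on low values, an FPKM (a read level corrected for transcript length and library size) reaching 1 in 2 or more of the 5 genotypes, as did 18912 rows of the whole table. The 8 members below it were WRKY8, WRKY10, WRKY12, WRKY13, WRKY30, WRKY38, WRKY41 and WRKY55.

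The study measured polyadenylated RNA in whole seedlings 7 days old, grown on agar at 23 °C with 16 hours of light and 8 of darkness and harvested 12 hours after lights came on (ZT +12). The tested genotypes were the hda9 hos15 double mutant, pwr, hda9 and hos15, and the wild type was Columbia-0 (Col). Each mutation was represented by 1 T-DNA insertion line: SALK_007123 for hda9, SALK_064435 for hos15 (allele hos15-2) and SALK_071811C for pwr. The double mutant carried both SALK_007123 and SALK_064435. HDA9 is a histone deacetylase, PWR (POWERDRESS) is a SANT-domain protein and HOS15 is a WD40-repeat protein, and the study treats them as members of 1 complex. Each genotype had 2 libraries, but the deposited table holds 1 authors' value per gene and genotype. There is thus no spread between replicates, no standard error and no test for any value below, and depth is unknown. A difference is described by its size alone, on the log2(FPKM + 1) scale, where 1 is a 2-fold difference and the pseudocount of 1 makes the change of a weakly expressed gene look smaller.

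WRKY proteins bind the W-box, a short DNA element with the core TTGAC, through a domain named for its opening amino acids. Many are switched on within minutes by wounding, touch or microbial signals, act downstream of mitogen-activated protein kinase (MAPK) cascades, and are bound by small VQ-motif proteins. Groups I, IIa to IIe and III follow the number of WRKY domains and the form of the zinc finger, and W-boxes are frequent in the promoters of WRKY genes themselves. Earlier work has placed HDA9 and PWR together with WRKY53 in leaf senescence and has named WRKY57 as a gene under HDA9, while WRKY38 has been described as a partner of another deacetylase, HDA19.

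The targeted genes were low in the columns named for them. HDA9 stood at 1.76 FPKM in the double mutant and 1.70 in hda9, against 7.79 in Col, and PWR stood at 2.18 in pwr, against 8.38 in Col. HOS15 stood at 1.89 in the double mutant and 2.16 in hos15, against 16.2 in Col, and it was also low in pwr (3.17) and hda9 (4.37). All 3 shoot and 4 root markers were expressed in every column, while of the 3 floral genes AG and AP3 stayed at or below 0.0904 FPKM and PI lay between 0.934 and 1.165. The summed shoot markers lay between 38031 and 49948 FPKM in the 4 mutants, against 29197 in Col; RBCS1A and LHCB1.3 carry this sum, and GUN4 lay between 32.2 and 40.99 in the mutants, against 42.3 in Col. The summed root markers lay between 1008 and 1152 in the mutants, against 1503 in Col, a sum made mostly of PYK10. PYK10 and WER were below Col in all 4 mutants, and CASP1 and COBL9 were above it in all 4. The part of these differences in the WRKY values was not tested, and in whole-seedling RNA fewer cells of a type and less RNA per cell cannot be told apart. Across all genes of this table the difference from Col also followed the purine content (A + G) of the transcript, so values below are also given sequence-adjusted. These are residuals after fitting transcript purine, GC content and length over 18079 protein-coding genes, with the median difference of those genes added back.

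In 4 members, WRKY40, WRKY18, WRKY33 and WRKY70, the double mutant stood at least 2-fold below both the hda9 and the hos15 single mutant. WRKY70 was at the edge of this limit against hda9 (-1.01). Of all kept genes, 1.49% stood that far below hda9 and 0.994% below hos15, while the share below both was not counted. The promoters of these 4 members are shown because the genes carry the contrast between the double mutant and its parents. WRKY proteins are also known to act on WRKY promoters. The windows are the 300 bases before the annotated start of each gene in the TAIR10.1 assembly, read 5′ to 3′ on the strand of the gene. They lie at chr1:30383261-30383560 (+) for WRKY40, chr4:15382477-15382776 (+) for WRKY18, chr2:16107935-16108234 (+) for WRKY33 and chr3:20910624-20910923 (−) for WRKY70. Capitals mark the W-box core TTGAC or its reverse complement GTCAA.
WRKY40: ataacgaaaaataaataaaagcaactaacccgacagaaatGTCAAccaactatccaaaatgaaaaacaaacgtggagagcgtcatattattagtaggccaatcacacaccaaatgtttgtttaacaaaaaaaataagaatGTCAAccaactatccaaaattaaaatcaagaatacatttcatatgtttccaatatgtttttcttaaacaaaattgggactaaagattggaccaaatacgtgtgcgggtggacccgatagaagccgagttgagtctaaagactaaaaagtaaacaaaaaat
WRKY18: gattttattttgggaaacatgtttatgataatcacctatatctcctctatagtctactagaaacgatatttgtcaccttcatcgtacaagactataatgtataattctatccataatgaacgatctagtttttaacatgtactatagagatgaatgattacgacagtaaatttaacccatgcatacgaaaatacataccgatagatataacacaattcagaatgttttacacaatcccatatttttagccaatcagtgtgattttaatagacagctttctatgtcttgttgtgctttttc
WRKY33: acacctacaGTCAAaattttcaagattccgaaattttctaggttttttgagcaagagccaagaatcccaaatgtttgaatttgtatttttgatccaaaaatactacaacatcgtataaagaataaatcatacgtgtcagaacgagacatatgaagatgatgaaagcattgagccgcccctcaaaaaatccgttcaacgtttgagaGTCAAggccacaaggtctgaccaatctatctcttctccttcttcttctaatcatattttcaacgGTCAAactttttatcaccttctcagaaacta
WRKY70: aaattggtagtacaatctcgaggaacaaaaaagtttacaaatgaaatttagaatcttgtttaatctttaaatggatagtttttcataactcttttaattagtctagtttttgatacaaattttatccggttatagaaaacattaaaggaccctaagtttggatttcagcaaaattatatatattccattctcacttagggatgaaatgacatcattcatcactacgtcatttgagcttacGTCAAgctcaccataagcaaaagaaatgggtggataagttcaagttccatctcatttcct
A full W-box, TTGACC or TTGACT on either strand, occurred 3 times in the WRKY33 window, at 292, 96 and 32 bases before the start, and was not among the letters of the other 3 windows. The shorter core TTGAC, which each full W-box contains, was present at 2 places in the WRKY40 window, at 1 in that of WRKY70 and at 0 in that of WRKY18. Over the family, 24 of 52 windows (46.2%) held a full W-box, against 8855 of 27443 windows of all protein-coding genes (32.3%). The core was present in 36 of 52 member windows (69.2%), against 50.4% of all windows, and 9 members (17.3%) had at least 2 full W-boxes, against 7.91%. These are matches of letters, not measured binding sites.

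WRKY40, WRKY18 and WRKY60 form group IIa, whose proteins are leucine-zipper partners of one another and restrain defence and abscisic acid responses. WRKY40 (AT1G80840, chromosome 1, positions 30383561 to 30385499, plus strand, TAIR10.1) had the widest range of all kept members, with a highest column 6.97 times its lowest. Its level was 2.83 FPKM in the double mutant, 5.87 in pwr, 19.7 in hda9 and 16.2 in hos15, against 5.14 in Col. Both single mutants of the deacetylase and the WD40 protein thus stood high, pwr stood near Col, and the double mutant was the lowest column. On the log2 scale WRKY40 was 1.76 above Col in hda9 and 1.49 above Col in hos15, 0.16 above it in pwr and 0.68 below it (-0.68) in the double mutant. The double mutant differed from hda9 by -2.44 and from hos15 by -2.16.

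WRKY18 (AT4G31800, chromosome 4, 15382777 to 15385100, plus strand) was likewise highest in the hda9 and hos15 single mutants and lowest in the double mutant. It stood at 5.52 FPKM in the double mutant, 10.3 in pwr, 21.7 in hda9 and 25.95 in hos15, against 16.6 in Col. The log2 differences from Col were -1.44 in the double mutant, -0.64 in pwr, 0.36 in hda9 and 0.61 in hos15, and the double mutant differed from hda9 by -1.80 and from hos15 by -2.05. The third gene of the group, WRKY60 (AT2G25000), did not share this range. Its values were 6.46 FPKM in the double mutant, 5.58 in pwr, 6.61 in hda9 and 6.97 in hos15, against 6.57 in Col, all within 1.5-fold of Col.

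WRKY33, WRKY25 and WRKY26 are related group I genes with roles in heat tolerance, and WRKY33 is a substrate of the kinases MPK3 and MPK6 that activates camalexin synthesis against necrotrophic fungi. WRKY33 (AT2G38470, chromosome 2, 16108235 to 16110766, plus strand) stood at 6.38 FPKM in the double mutant, 7.46 in pwr, 20.7 in hda9 and 23.0 in hos15, against 17.6 in Col. The double mutant and pwr formed a low pair, with log2 differences of -1.34 and -1.14 from Col, while hda9 and hos15 stood slightly above Col, by 0.22 and 0.37. WRKY26 had the same signs within narrower limits, at 6.19 FPKM in the double mutant, 8.32 in pwr, 11.6 in hda9 and 11.3 in hos15, against 10.9 in Col. WRKY25 stood below Col throughout, at 5.62 FPKM in the double mutant, 7.24 in pwr, 10.3 in hda9 and 8.96 in hos15, against 11.3 in Col. Being above Col in hda9 and hos15 but below it in pwr and the double mutant was a pattern of 5 kept members (WRKY6, WRKY18, WRKY26, WRKY33 and WRKY60), which is 11.6% of the family, against 3.01% of all kept genes. The count takes signs of any size, so WRKY60, with its near-level columns, is among them. Under both median-ratio scaling and quantile normalization WRKY18, WRKY26 and WRKY33 had these signs, and WRKY6 and WRKY60 did not.

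**Figure D1:**
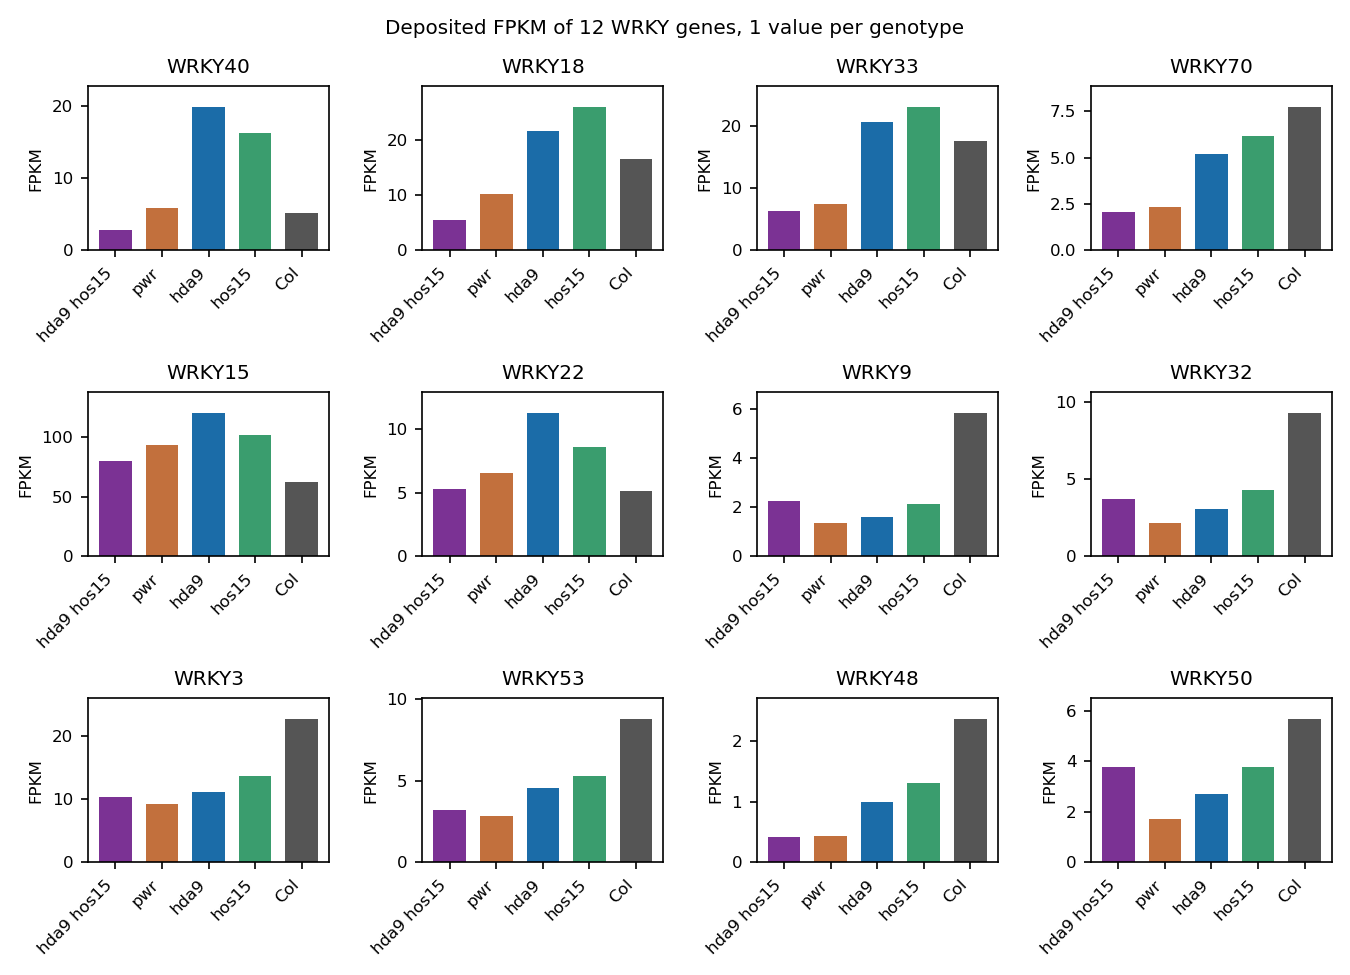
Deposited FPKM (vertical axis, linear from 0, scaled separately in each panel) of 12 WRKY genes in the hda9 hos15 double mutant, pwr, hda9, hos15 and Col, 1 authors' value per bar and no error available. WRKY40 is highest in hda9 (19.7) and lowest in the double mutant (2.83), WRKY33 is low in both the double mutant and pwr, and WRKY9, WRKY32 and WRKY3 are highest in Col.

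The sequence adjustment altered these differences little. The adjusted values against Col for WRKY40 were -0.62 in the double mutant, 0.27 in pwr, 1.79 in hda9 and 1.51 in hos15. For WRKY33 they were -1.20 in the double mutant, -0.97 in pwr, 0.34 in hda9 and 0.44 in hos15, so that pwr moved just inside the 2-fold limit. Both genes overlap annotated genes on the other strand, and the sources used here do not say whether the authors' counting used strand. The overlapping gene of WRKY40, AT1G80850, lay between 6.44 and 8.12 FPKM in the 5 columns. WRKY33 overlaps AT2G38480, which lay between 3.50 and 4.94 FPKM, and AT2G08965, for which no value was used here. Both measured neighbours varied less than the WRKY gene beside them.

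Genes known to respond within minutes to touch and stress were likewise lower in the double mutant than in hda9 and hos15. All 12 listed genes of that kind were kept. The list was chosen with earlier results of these data known, so its counts are no independent comparison with all genes. The same holds for the other gene lists below. At least 2-fold above Col were 1 in the double mutant, 5 in pwr, 10 in hda9 and 9 in hos15, where 1.49%, 1.94%, 1.99% and 1.23% of all kept genes were. Their median log2 difference from Col was 0.06 in the double mutant, 0.74 in pwr, 1.27 in hda9 and 1.20 in hos15. Unlike WRKY40, which was below Col in the double mutant, 6 of these genes were above Col there and 6 were below it. For the zinc-finger gene STZ the values were 28.2 FPKM in the double mutant, 45.5 in pwr, 105 in hda9 and 70.9 in hos15, against 12.8 in Col. The ethylene response factor ERF6 stood at 21.3 FPKM in the double mutant, 61.8 in pwr, 105 in hda9 and 71.6 in hos15, against 18.7 in Col, and TCH4, a touch-induced cell wall enzyme, at 57.03, 148.0, 269.6 and 314 in those 4 mutants in the same order, against 117 in Col. In STZ, ERF6 and TCH4, as in WRKY40, hda9 and hos15 were high and the double mutant was far below them. JAZ1 had another order, at 10.7 FPKM in the double mutant, 10.6 in pwr, 26.5 in hda9 and 21.9 in hos15, against 22.05 in Col. The summed FPKM of the 12 genes was 362 in the double mutant, 684 in pwr, 1129 in hda9 and 1060 in hos15 (1059.9), against 434 in Col. The part of this shared stress-gene level in the WRKY values was not tested.

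Upstream of the WRKY proteins, all 9 listed genes of the MAPK cascade were kept. None was at least 2-fold from Col in the double mutant, while 2 were above Col by that much in pwr, 2 in hda9 and 2 in hos15, where 1.94%, 1.99% and 1.23% of all kept genes were. Those were MKK4 and MKK9, kinases that activate MPK3 and MPK6. MKK4 stood at 17.9 FPKM in the double mutant, 23.8 in pwr, 24.2 in hda9 and 23.4 in hos15, against 8.90 in Col, and MKK9 at 19.1 in the double mutant, 24.2 in pwr, 29.3 in hda9 and 22.3 in hos15, against 9.79 in Col. Unlike WRKY40, but as with STZ and ERF6, these kinase genes stood above Col in the double mutant too. MPK3 followed the WRKY40 order instead, with 72.1 FPKM in the double mutant, 82.2 in pwr, 150.2 in hda9 and 141 in hos15, against 79.4 in Col.

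Of the 7 listed VQ-motif genes, whose proteins bind WRKY domains, all were kept. At least 2-fold above Col were 0 in the double mutant, 1 in pwr, 3 in hda9 and 1 in hos15, where 1.49%, 1.94%, 1.99% and 1.23% of all kept genes were. SIB1, a partner of WRKY33, stood at 5.39 FPKM in the double mutant, 9.75 in pwr, 20.3 in hda9 and 13.8 in hos15, against 7.73 in Col. JAV1, a repressor of jasmonate defence, stood at 5.32 FPKM in the double mutant, 8.53 in pwr, 13.6 in hda9 and 9.28 in hos15, against 5.73 in Col. In both genes hda9 was the highest column and the double mutant the lowest, and after sequence adjustment JAV1 in hda9 was inside the 2-fold limit (0.93). The third, VQ10, was near 1 FPKM in the double mutant (1.26) and Col (1.09), and between 3.61 and 4.19 in the other 3 columns.

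**Figure D2:**
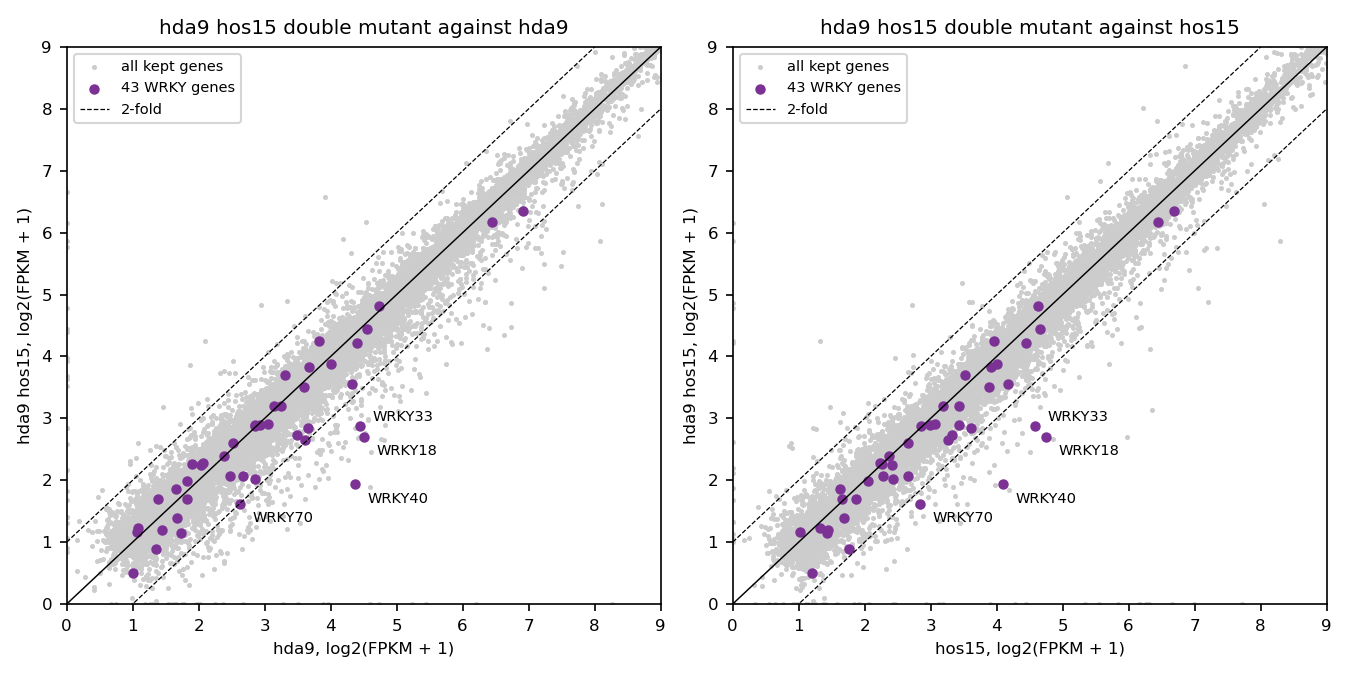
Level in the hda9 hos15 double mutant (vertical axis) against that in hda9 (left) and hos15 (right), all as log2(FPKM + 1), for 43 WRKY genes (purple) and all kept genes (grey), with genes beyond 9 on either axis not drawn. The solid line marks equal levels and the dashed lines a 2-fold difference. WRKY40, WRKY18, WRKY33 and WRKY70 lie below the lower dashed line in both panels, and no WRKY gene lies above the upper one.

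Group III holds WRKY70, WRKY53, WRKY54 and WRKY46, which act in salicylic acid signalling and leaf senescence. WRKY70 (AT3G56400, chromosome 3, 20908711 to 20910623, minus strand), a switch between salicylic acid and jasmonate responses, stood at 2.08 FPKM in the double mutant, 2.35 in pwr, 5.18 in hda9 and 6.15 in hos15, against 7.71 in Col. All 4 mutants were below Col, and the double mutant and pwr were furthest from it, by -1.50 and -1.38 on the log2 scale, against -0.50 in hda9 and -0.29 in hos15. The sequence-adjusted differences, -1.52 in the double mutant, -1.40 in pwr, -0.54 in hda9 and -0.32 in hos15, were nearly the same. Against the single mutants the double mutant was -1.01 from hda9, at the edge of the 2-fold limit and inside it after sequence adjustment (-0.94), and -1.22 from hos15. Its close relative WRKY54 was weak, at 1.24 FPKM in the double mutant, 0.819 in pwr, 1.09 in hda9 and 1.04 in hos15, against 2.02 in Col. WRKY46 was likewise near the filter, at 0.843 FPKM in the double mutant, 0.880 in pwr, 1.56 in hda9 and 2.38 in hos15, against 2.04 in Col. WRKY46 passed the filter only through hda9, hos15 and Col, the columns where it was highest. Its place in the counts and group medians below is thus not independent of the filter.

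WRKY53 (AT4G23810, chromosome 4, 12392370 to 12393982, minus strand) promotes leaf senescence. Its level was 3.22 FPKM in the double mutant, 2.86 in pwr, 4.56 in hda9 and 5.32 in hos15, against 8.77 in Col. It was lower than Col by at least 1.5-fold in all 4 mutants, with log2 differences of -1.21 in the double mutant, -1.34 in pwr, -0.81 in hda9 and -0.63 in hos15. WRKY53 overlaps, on the other strand, 3xHMG-box2 (AT4G23800), a gene for a DNA-binding protein of dividing cells. That gene stood at 6.56 FPKM in the double mutant, 2.85 in pwr, 4.35 in hda9 and 4.87 in hos15, against 32.3 in Col, so it was low in the same 4 columns and by more, with log2 differences between -2.14 and -3.11. A second pair has the same layout: WRKY41 (AT4G11070), which was below the filter, overlaps 3xHMG-box1 (AT4G11080). WRKY41 stood at 0.693 FPKM in the double mutant, 0.476 in pwr, 0.485 in hda9 and 0.752 in hos15, against 2.79 in Col, and 3xHMG-box1 at 0.619 in the double mutant, 0.310 in pwr, 0.588 in hda9 and 0.692 in hos15, against 5.19 in Col. Where counting is not stated to use strand, reads of overlapping partners cannot be told apart, so the WRKY53 and WRKY41 values are uncertain. The same limit holds for the other overlapping members. WRKY4 overlaps AT1G13970, which lay between 0.496 and 0.795 FPKM in the mutants, against 2.92 in Col. WRKY19 overlaps AT4G12010, between 1.05 and 1.56 in the mutants, against 2.94 in Col. The remaining measured partners were within 2-fold of Col. In the annotation 10 of the 52 members overlap a gene on the other strand and 0 overlap one on their own.

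WRKY38 (AT5G22570), described in earlier work as a partner of HDA19, was below the filter, at 1.37 FPKM in the double mutant, 0.652 in pwr, 0.725 in hda9 and 0.894 in hos15, against 0.657 in Col. The remaining group III genes among the 52, WRKY30 and WRKY55, were at most 0.172 FPKM in any column. The defence markers downstream of salicylic acid were at different levels. PR1 was at most 0.122 FPKM, PR2 lay between 0.112 and 0.631 in the mutants, against 1.36 in Col, and PR5 lay between 9.57 and 11.2 in the 5 columns. The senescence marker SAG12 was listed at 0 in all 5.

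A different set of members was highest in Col and lower in every mutant. WRKY9 of group IIb (AT1G68150, chromosome 1, 25543949 to 25545791, plus strand) stood at 2.26 FPKM in the double mutant, 1.37 in pwr, 1.61 in hda9 and 2.15 in hos15, against 5.84 in Col. It was the only kept member at least 2-fold below Col in all 4 mutants, as were 1.89% of all kept genes, at -1.07, -1.53, -1.39 and -1.12 in the order double mutant, pwr, hda9 and hos15. Its double-mutant value fell short of 2-fold under median-ratio scaling (-0.99) and quantile normalization (-0.83). Its hos15 value also fell short under quantile normalization (-0.96). WRKY32, a group I gene tied to light-dependent seedling growth (AT4G30935, chromosome 4, 15051764 to 15054107, minus strand), stood at 3.72 FPKM in the double mutant, 2.15 in pwr, 3.10 in hda9 and 4.35 in hos15, against 9.29 in Col. WRKY3 (AT2G03340, chromosome 2, 1014350 to 1017222, minus strand), which acts against necrotrophic fungi, stood at 10.4 FPKM in the double mutant, 9.16 in pwr, 11.1 in hda9 and 13.7 in hos15, against 22.6 in Col. In all 3 genes the single mutants were already low and pwr was the lowest column, unlike the order in WRKY40 and WRKY33. WRKY3 in the double mutant also fell short of 2-fold under median-ratio scaling (-0.96) and quantile normalization (-0.998). WRKY32 in the double mutant did so under quantile normalization (-0.93). WRKY4, the close relative of WRKY3, had 8.22 FPKM in the double mutant, 6.77 in pwr, 8.55 in hda9 and 9.81 in hos15, against 13.8 in Col.

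These 3 genes are among the more purine-rich members of the family, with purine shares of 54.8% in WRKY9, 56.1% in WRKY32 and 53.2% in WRKY3, while the 43 kept members range between 45.9% and 56.1% with a median of 51.1%. The most purine-rich stretch of 60 coding bases of WRKY9 and WRKY32 is shown to illustrate what a purine-rich transcript looks like, beside that of WRKY15, a purine-poor transcript above Col in every mutant. These examples were chosen after their values were seen, and the adjustment uses the whole transcript, not such a stretch. The stretches lie at chr1:25544081-25544140 (+) for WRKY9, chr4:15051963-15052022 (−) for WRKY32 and chr2:9925752-9925811 (+) for WRKY15 in TAIR10.1, on the coding strand, with purines in capitals.
WRKY9: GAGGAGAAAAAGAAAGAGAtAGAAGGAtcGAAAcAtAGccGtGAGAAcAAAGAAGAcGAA
WRKY32: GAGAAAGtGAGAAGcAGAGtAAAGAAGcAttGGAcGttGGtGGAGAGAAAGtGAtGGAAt
WRKY15: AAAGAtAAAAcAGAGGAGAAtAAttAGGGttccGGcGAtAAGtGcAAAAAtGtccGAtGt
Purines made up 50 of the 60 bases in WRKY9, 47 in WRKY32 and 41 in WRKY15. Richer stretches occur in members closer to Col: WRKY27 has 55 of 60 and WRKY23 has 51, with log2 differences of -0.20 and -0.10 in the double mutant. After the sequence adjustment WRKY9 stood at -0.70 in the double mutant, -0.94 in pwr, -0.97 in hda9 and -0.80 in hos15, inside the 2-fold limit in all 4. For WRKY32 the adjusted values were -0.71, -1.04, -0.81 and -0.53 in the same order, and for WRKY3 -0.74, -0.77, -0.64 and -0.45. Over the 43 members, Spearman's rho across genes between purine share and the log2 difference from Col was -0.53 in the double mutant, -0.64 in pwr, -0.52 in hda9 and -0.50 in hos15, against -0.46, -0.53, -0.47 and -0.42 over all 18079 fitted genes. These describe genes that share the same 5 columns and are not tests.

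**Figure D3:**
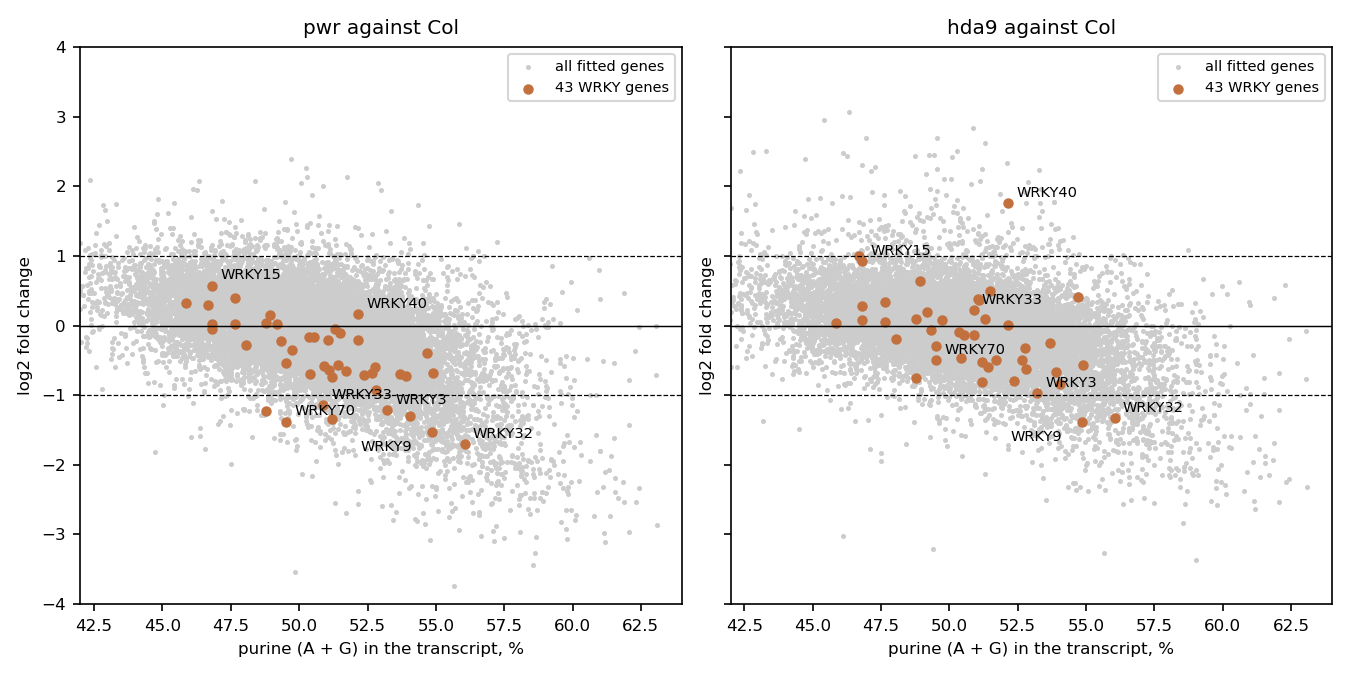
Log2 fold change against Col (vertical axis) of pwr (left) and hda9 (right), plotted against the purine share of each transcript in percent, for 43 WRKY genes (orange) and all fitted genes within the axis limits (grey), with dashed lines at a 2-fold difference. WRKY9 and WRKY32 lie at the purine-rich end with the lowest members, while WRKY70 and WRKY33 are low in pwr at 49.5% and 50.9% purine, and WRKY40 is high in hda9 at 52.2%.

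WRKY48 and WRKY50 of group IIc were also highest in Col. WRKY48 (AT5G49520, chromosome 5, 20090648 to 20093346, plus strand), a repressor of basal defence, was weak, at 0.417 FPKM in the double mutant, 0.433 in pwr, 0.9998 in hda9 and 1.31 in hos15, against 2.36 in Col. WRKY48 passed the filter only through hos15 and Col, the columns where it was highest. It kept a low pair of the double mutant and pwr after sequence adjustment, at -1.18 and -1.19. Under quantile normalization its pwr value was inside the 2-fold limit (-0.95). WRKY50 (AT5G26170, chromosome 5, 9146879 to 9148391, minus strand), which represses jasmonate signalling under low oleic acid, stood at 3.78 FPKM in the double mutant, 1.70 in pwr, 2.73 in hda9 and 3.78 in hos15, against 5.66 in Col. Here the double mutant equalled hos15 and pwr alone was past 2-fold (-1.30), but it was inside the limit after the sequence adjustment (-0.88) and under quantile normalization (-0.95).

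The most abundant members belonged to group IId, whose proteins bind calmodulin. WRKY15 (AT2G23320, chromosome 2, 9924886 to 9926372, plus strand), which affects cell expansion and osmotic stress responses, stood at 80.4 FPKM in the double mutant, 93.7 in pwr, 120.1 in hda9 and 102 in hos15, against 62.6 in Col. It was above Col in every mutant, by 0.36, 0.57, 0.93 and 0.70 in that order, and below 2-fold in all. WRKY11 (AT4G31550), a negative regulator of basal resistance, stood at 71.3 FPKM in the double mutant, 68.2 in pwr, 86.4 in hda9 and 86.4 in hos15, against 70.9 in Col. Its partner WRKY17 (AT2G24570) stood at 27.2 FPKM in the double mutant, 26.6 in pwr, 25.5 in hda9 and 23.7 in hos15, against 19.97 in Col. WRKY15 has a purine share of only 46.8% and WRKY17 of 47.7%, and the adjusted values of WRKY17 were between 0.08 and 0.20. The other members of the group, WRKY7, WRKY21 and WRKY39, lay between 13.4 and 24.2 FPKM in all columns and within 1.5-fold of Col.

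WRKY22 of group IIe (AT4G01250), which acts in the kinase cascade triggered by bacterial flagellin, was also highest in hda9 and hos15, without passing 2-fold. It stood at 5.30 FPKM in the double mutant, 6.53 in pwr, 11.2 in hda9 and 8.55 in hos15, against 5.13 in Col, a log2 difference of 0.99 in hda9 and of 0.04 in the double mutant. After sequence adjustment these were 0.60 and -0.37. Its partner in that cascade, WRKY29, stood lower than Col in all mutants, at 6.40 FPKM in the double mutant, 5.90 in pwr, 6.20 in hda9 and 9.82 in hos15, against 10.5 in Col. WRKY14 was the steadiest kept member, between 6.003 and 6.374 FPKM. WRKY16 could not be read on its own, and the row it shares with AT5G45040 lay between 40.6 and 44.6 FPKM.

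WRKY57 (AT1G69310), a group IIc gene of drought and senescence responses that has been placed under HDA9, stood at 17.9 FPKM in the double mutant, 16.3 in pwr, 13.1 in hda9 and 14.6 in hos15, against 12.8 in Col. It was highest in the double mutant and differed from Col by 0.46 there and by 0.03 in hda9, under 1.5-fold in each mutant. WRKY75 and WRKY45, which act in phosphate starvation, were highest in hda9 at 5.41 and 6.25 FPKM, against 3.84 and 4.58 in Col. WRKY6, a repressor of the phosphate exporter gene PHO1, had 10.8 FPKM in the double mutant, 12.2 in pwr, 19.1 in hda9 and 17.05 in hos15, against 13.2 in Col, while PHO1 itself lay between 26.83 and 32.95 FPKM. WRKY44, also known as TTG2 and required for trichomes and seed coat, stood at 1.34 FPKM in the double mutant, 1.24 in pwr, 1.12 in hda9 and 1.51 in hos15, against 2.67 in Col. Its reported target GL2 lay between 5.34 and 6.15 FPKM in the 5 columns.

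Counted over the family, members at least 2-fold below Col were a larger share than among all kept genes in the double mutant and in pwr. In the double mutant 8 of 43 members were lower (18.6%), against 3.91% of all kept genes, and 0 were higher, against 1.49%. Those 8 were WRKY3, WRKY9, WRKY18, WRKY32, WRKY33, WRKY48, WRKY53 and WRKY70. In pwr 8 of 43 were lower (18.6%), against 7.55% of all kept genes, with WRKY50 in the place of WRKY18, and 0 were higher, against 1.94%. After the sequence adjustment 5 members were lower in the double mutant (11.6%), against 1.55% of all fitted genes, and 4 in pwr (9.30%), against 3.01%. WRKY48, WRKY53 and WRKY70 were in both adjusted sets, joined by WRKY18 and WRKY33 in the double mutant and by WRKY32 in pwr. WRKY32 was near the limit there (-1.04). WRKY48 passed the filter only through hos15 and Col, so its place in these counts is not independent of the filter. WRKY53 overlaps 3xHMG-box2 on the other strand, so its value and its place in these counts are uncertain. WRKY9 and WRKY33 also overlap genes on the other strand.

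In the single mutants hda9 and hos15 the counts were near those of all genes. In hda9 2 members were lower (4.65%), WRKY9 and WRKY32, against 4.49% of all kept genes, and 1 was higher (2.33%), WRKY40, against 1.99%. In hos15 1 was lower, WRKY9, against 2.48% of all kept genes, and 1 was higher, WRKY40, against 1.23%. The family counts in these mutants were thus close to the background of all genes, and WRKY40 was the only kept member above 2-fold. These comparisons all use the same Col column.

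Between mutants, 4 of 43 members (9.30%) were lower in the double mutant than in hda9, against 1.49% of all kept genes, and 0 were higher, against 0.36%. Against hos15 the same genes, WRKY18, WRKY33, WRKY40 and WRKY70, were lower in the double mutant (9.30%), where 0.994% of all kept genes were lower, and 0 members were higher, where 0.296% of all were. None was at least 2-fold apart between the double mutant and pwr, against 0.598% of all kept genes in each direction. The double mutant stood below both its parents in 26 members (60.5%, against 39.3% of all kept genes), above both in 10 (23.3%, against 32.02%) and between them in 7. The pwr column was lower still relative to the single mutants, as it stood below both hda9 and hos15 in 39 of 43 members (90.7%), against 51.2% of all kept genes. WRKY46 and WRKY48 are among both the 26 and the 39. Neither reached the filter level in the double mutant or pwr, so their places there are not independent of the filter.

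**Figure D4:**
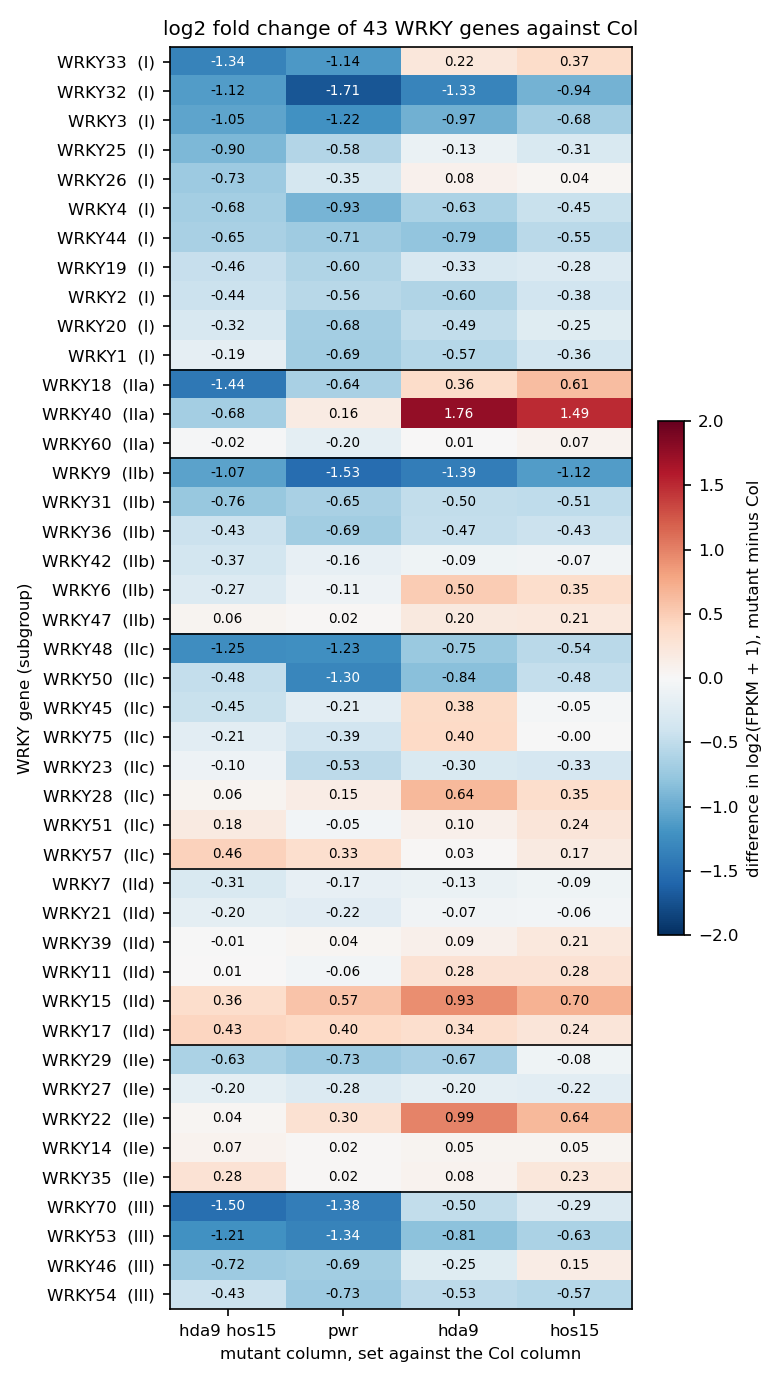
Difference in log2(FPKM + 1), mutant minus Col, of the 43 kept WRKY genes (rows, ordered by group and by the value in the double mutant) in the hda9 hos15 double mutant, pwr, hda9 and hos15 (columns), red above and blue below Col. All 11 group I genes are below Col in the double mutant and pwr, WRKY40 is above it in hda9 (1.76) and hos15 (1.49), and groups IId and IIe hold genes on both sides of 0, with WRKY15 (0.93) and WRKY22 (0.99) highest among them in hda9.

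The medians per group place these counts. The median log2 difference from Col of the 43 members was -0.43 in the double mutant, -0.53 in pwr, -0.13 in hda9 and -0.07 in hos15, against -0.07, -0.09, -0.04 and -0.01 over all kept genes. Group I (11 kept members) had medians of -0.68 in the double mutant, -0.69 in pwr, -0.57 in hda9 and -0.36 in hos15, and group III (4 kept) had -0.97, -1.04, -0.51 and -0.43. Group IIa (3 kept) had medians of opposite sign between mutants, with -0.68 in the double mutant, -0.20 in pwr, 0.36 in hda9 and 0.61 in hos15. The medians of group IIb (6 kept) were -0.40, -0.41, -0.28 and -0.25, and those of group IIc (8 kept) -0.15, -0.30, 0.06 and -0.02, in that order of mutants. The medians of groups IId and IIe were between -0.01 and 0.22 in every mutant. The groups also differ in purine share, with medians of 52.7% in group I and 51.2% in group III, against 48.2% in IId and 47.6% in IIe. Group IIa has a median purine share of 52.2%. Its medians in hda9 and hos15 are those of WRKY18, as only 3 members were kept. The part of purine share in the differences between groups was not tested. The group assignments follow the usual classification and were not checked against protein sequences.

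A smaller share of the members than of all kept genes stayed close to Col. In 17 members (39.5%, against 65.9% of all kept genes) every mutant was within 1.5-fold of Col. Below Col in all 4 mutants were 23 members (53.5%, against 41.2% of all kept genes), and above it in all 4 were 8 (18.6%, against 31.9%), namely WRKY14, WRKY15, WRKY17, WRKY22, WRKY28, WRKY35, WRKY47 and WRKY57. The double mutant was the highest column for 4 members (15.5%), pwr for 0 (15.8%), hda9 for 9 (15.04%), hos15 for 7 (12.4%) and Col for 23 (41.2%), where each percentage is the share of all kept genes highest in that column. The summed FPKM of the 43 members was 419.6 in the double mutant, 424.5 in pwr, 551 in hda9 and 548 in hos15, against 497 in Col, a sum in which WRKY15 and WRKY11 are the main terms.

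Of 21 reported target or downstream genes, 14 were kept. None was at least 2-fold from Col in the double mutant or hos15. In pwr 1 was lower, where 7.55% of all kept genes were, and in hda9 2 were higher and 1 was lower, where 1.99% and 4.49% of all were. EDS1, an activator of salicylic acid defence, stood at 4.98 FPKM in the double mutant, 2.58 in pwr, 4.23 in hda9 and 5.57 in hos15, against 10.9 in Col, and was at least 2-fold lower in pwr and hda9. After sequence adjustment EDS1 was inside that limit, at -0.84 in pwr and -0.48 in hda9. The ethylene synthesis gene ACS6, a target of WRKY33, stood at 8.24 FPKM in the double mutant, 10.5 in pwr, 20.98 in hda9 and 18.4 in hos15, against 8.92 in Col. CBP60G, a regulator of salicylic acid synthesis, stood at 2.32 FPKM in the double mutant, 3.47 in pwr, 7.35 in hda9 and 6.75 in hos15, against 3.08 in Col. These last genes had the column order of WRKY40, high in both single mutants and below Col in the double mutant. The camalexin gene PAD3, another WRKY33 target, stood at 2.14 FPKM in the double mutant, 2.20 in pwr, 3.56 in hda9 and 3.04 in hos15, against 3.74 in Col.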

How the data were processed

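RNA-seq was made from 10 libraries, 2 per genotype, using a kit for stranded mRNA, per the labels' protocols. TopHat2, Cufflinks, Cuffdiff and build TAIR10 are named per the submitters' processing notes; the sources used here give no versions or settings and do not say how libraries were combined. The deposited file gives FPKM, 1 value per gene and genotype, which the authors made. The wild-type column was taken as Col.

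Values were compared as log2(FPKM + 1) on rows whose FPKM reached 1 in 2 or more of 5 columns. A fixed size rule (2-fold) stood in for a test, since no spread can be had, so 7 comparisons carry no p-value. The rule was run on simulated columns with large planted changes and an assumed noise. That run checks the code and cannot give the error rate of the rule in these data. Sequence-adjusted values are residuals on cubic splines (5 knots) of transcript purine, GC and log2 length, for protein-coding genes of at least 300 nt. The median difference of all fitted genes was added back to them, so the overall level is kept. Promoters and coordinates come from the TAIR10.1 genome and its RefSeq annotation. The alternatives were a pseudocount of 0.1, no filter, median-ratio scaling, quantile normalization, the sequence adjustment and a 1.5-fold rule. Named were kept members past 2-fold in any comparison or 1.5-fold the same way in all 4 mutants, the 3 most abundant, and WRKY53, WRKY57 and WRKY38; others are given as context and were chosen after their values were seen. The members and lists were chosen with earlier results of these data known. Python 3.11.15, pandas 2.3.3 and scikit-learn 1.9.0 were used.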

Additional observations from a re-analysis of the deposited data

Results flagged for a closer look

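WRKY40 stood apart because loss of the same gene went with opposite differences in different backgrounds. For loss of HOS15, the log2 difference was -2.44 in the hda9 background (double mutant minus hda9) and 1.49 in the wild-type background (hos15 minus Col). For loss of HDA9 it was -2.16 in the hos15 background (double mutant minus hos15) and 1.76 in the wild-type background (hda9 minus Col). Both contrasts share columns and rest on 1 value per genotype, and the difference between backgrounds was not tested. HOS15 itself was already low in hda9 (4.37 FPKM, against 16.2 in Col), so its loss started from unequal levels in these backgrounds. HDA9 was not low in hos15 (10.7 FPKM, against 7.79 in Col). Among the 18912 kept genes, 95 (0.502%) were at least 2-fold higher with loss of HOS15 in wild type and at least 2-fold lower with it in hda9, and 5 had the reverse. For loss of HDA9 the numbers were 84 (0.444%) and 7.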

How the results depend on the processing

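No paired analysis was possible because the table holds 1 value per genotype, and for the same reason leaving out a replicate was not run. Of 518 alternative values for the 15 named members, 11 changed sign, and each of those was within 0.0559 of 0 before (log2). Counts that moved by over 1.5 times and medians that moved by over 0.1 are these; the cause was not tested. Among smaller moves, a pseudocount of 0.1 gave 11 members lower in the double mutant and 12 in pwr, and 6 lower in the double mutant against either hda9 or hos15. Median-ratio scaling gave 6 lower in the double mutant against Col. Against hda9 the double mutant had 3 lower after quantile normalization and after the sequence adjustment.

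In the double mutant against Col, the 8 members lower became 5 after quantile normalization, 5 after the sequence adjustment and 16 at 1.5-fold, and the median became -0.53 with a pseudocount of 0.1, -0.19 after quantile normalization and -0.26 after the sequence adjustment. In pwr the 8 lower became 4 after the sequence adjustment and 19 at 1.5-fold, and the median became -0.64 with a pseudocount of 0.1, -0.35 without the filter, -0.19 after quantile normalization and -0.32 after the sequence adjustment. In hda9 the 1 higher became 2 with a pseudocount of 0.1, 3 after median-ratio scaling, 2 after quantile normalization and 4 at 1.5-fold; the 2 lower became 6 with a pseudocount of 0.1, 0 after the sequence adjustment and 10 at 1.5-fold; and the median became -0.0042 after quantile normalization. In hos15 the 1 lower became 2 with a pseudocount of 0.1, 2 without the filter, 0 after quantile normalization, 0 after the sequence adjustment and 4 at 1.5-fold, and the 1 higher became 4 at 1.5-fold. At 1.5-fold the 4 members lower in the double mutant became 11 against hda9 and 10 against hos15. Against pwr the double mutant had 1 higher with a pseudocount of 0.1 and 1 at 1.5-fold, and 1 and 2 lower.

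Median-ratio scaling and quantile normalization shifted the median of all genes in pwr against Col by 0.12 and 0.14 (log2). Relative to all genes, the members' median in pwr was -0.45 as deposited, -0.47 and -0.25 under these scalings, and -0.26 after the sequence adjustment. Members with pwr below both hda9 and hos15 numbered 36 (83.7%, against 39.2% of all kept genes) under median-ratio scaling and 30 (69.8%, against 36.4%) under quantile normalization; this check was chosen after seeing the data. Under the same scalings 11 and 11 members were above Col in all 4 mutants and 22 and 20 below it. Depth is unknown, so the precision of weak members such as WRKY48 and WRKY54 cannot be given.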

Other observations

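The annotation names 20 further WRKY genes outside the 52. Of these, 19 had a row and 10 were kept. In these 10 the median log2 difference from Col was -0.19 in the double mutant, -0.44 in pwr, 0.06 in hda9 and -0.24 in hos15. The 1 gene past 2-fold was WRKY61, lower in pwr by 1.12 (-1.12), with 1.20 FPKM in the double mutant, 0.675 in pwr, 0.889 in hda9 and 1.07 in hos15, against 2.65 in Col. After sequence adjustment its pwr value was -0.68, inside the limit. WRKY69 stood below Col in all 4 mutants, at 5.34 FPKM in the double mutant, 5.51 in pwr, 8.05 in hda9 and 7.96 in hos15, against 10.2 in Col. WRKY65 lay between 22.2 and 25.3 FPKM in the 5 columns. ABO3 (AT1G66600) stood above Col in all 4 mutants, at 1.07 FPKM in the double mutant, 1.24 in pwr, 1.44 in hda9 and 1.46 in hos15, against 0.486 in Col. This gene passed the filter only through the mutants.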
